A study of Rattus norvegicus with 9 samples.

Results

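The heat shock chaperones described here are 9 genes chosen by symbol, Hspa1a, Hspa1b, Hspb1, Hsph1, Dnajb1, Hsp90aa1, Hspa8, Hspd1 and Hspe1, out of the 41801 genes counted in single-cell RNA-seq of the rat proximal tibia after a circular osteotomy. All 9 were found in every library. Sprague-Dawley rats of 6 to 8 weeks had the bone cut (TO, tibial osteotomy) or the bone cut followed by radial extracorporeal shock waves to the cut site (TOE) on day 2 and day 4 after surgery, and every animal also carried a skin wound on the foot of the same side. The 8 libraries analysed were TO_2d_0h, TO_2d_4h, TO_4d_4h and TO_4d_24h without shock waves, and TOE_2d_4h, TOE_2d_24h, TOE_4d_4h and TOE_4d_24h with them. The day is that of the session, counted from surgery, and the hour is the time of collection after the session. TO libraries had no session and carry the hour as a label. Under this schedule the TOE libraries of day 2 followed 1 session and those of day 4 followed 2. Within TOE, day and number of sessions thus cannot be told apart, and TOE against TO pools both. Within a day a later hour is also a longer time since surgery, so these cannot be told apart. The sample TO_2d_24h was not analysed here. Each condition was 1 library, so 4 libraries collected at 4 h were set against 4 collected at 0 h or 24 h (other hours), and 4 TOE libraries against 4 TO libraries.

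Chaperones bind unfolded or partly folded proteins and help them reach or regain their shape. In the cytosol, HSP70 proteins (Hspa1a and Hspa1b, which are strongly inducible, and Hspa8, which is made in most cells at all times) take up clients handed over by J-domain proteins such as Dnajb1, release them with the help of nucleotide exchange factors such as Hsph1, and pass some on to HSP90 (Hsp90aa1). The small heat shock protein Hspb1 holds unfolded proteins without using ATP, and Hspd1 with its lid Hspe1 forms the folding chamber of the mitochondrion. Heat, oxidative damage and other causes of protein unfolding release the factor HSF1 from chaperones, and HSF1 then binds heat shock elements, inverted repeats of GAA and TTC, in the promoters of inducible chaperone genes.

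The promoters of the members were searched for the letters that this factor reads. RefSeq promoters of build GRCr8, from 250 bases before to 50 bases after the annotated start, were given for 7 of the 9 members, and those of Hspa1b and Hsp90aa1 were not used here. A heat shock element was searched as 3 alternating units, TTCNNGAANNTTC or GAANNTTCNNGAA, which are each other's reverse complement, so that both strands were covered. This motif stood in 4 of the 7 promoters (Hsph1, Hspa8, Hspd1 and Hspe1) and in 0.798% of all 33469 promoters of the table. The shorter form of 2 units, TTCNNGAA or GAANNTTC, which every longer match also contains, stood in 15.9% of all promoters and also in those of Hspb1 and Dnajb1. No match of either form lay in the Hspa1a window, which says only that these letters are not in that window. Capitals mark the matched bases, and each line reads 5′ to 3′ on the strand of the gene, upstream of its start.
Hsph1, chr12:10427312-10427364, plus strand: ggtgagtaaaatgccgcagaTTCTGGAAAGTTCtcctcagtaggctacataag
Hspa8, distal match, chr8:50080281-50080333, plus strand: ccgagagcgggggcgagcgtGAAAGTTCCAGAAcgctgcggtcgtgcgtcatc
Hspa8, proximal match, chr8:50080439-50080491, plus strand: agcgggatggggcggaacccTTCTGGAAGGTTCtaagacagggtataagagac
Hspe1, chr9:64084242-64084299, plus strand: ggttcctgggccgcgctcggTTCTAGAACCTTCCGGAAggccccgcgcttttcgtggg
Hspb1, 2-unit matches, chr12:26432383-26432450, minus strand: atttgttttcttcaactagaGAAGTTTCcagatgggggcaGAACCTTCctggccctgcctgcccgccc
The Hspe1 element ended 47 bases before the start of Hspe1. The same bases, read on the other strand, ended 224 bases before the start of Hspd1, because the pair is transcribed head to head from a shared promoter. The Hsph1 element ended 23 bases before its start, and the elements of Hspa8 ended 42 and 200 bases before its start. These coordinates are those of GRCr8 and not of the build against which the reads were counted.

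The libraries held 12451 to 17187 cell barcodes and 95954800 to 144146202 unique molecular identifiers (UMIs, each standing for 1 captured RNA molecule). A total of 110487 cells remained after filters and were clustered without the list genes, and 10 classes with at least 20 cells in every library were named from marker genes: B-cell-like (51.0% of the cells), neutrophil-like (14.2%), monocyte-like (10.1%), erythroid-like (6.24%), dendritic-cell-like, macrophage-like, granulocyte-monocyte progenitor-like, mesenchymal-like, T/NK-cell-like and mast-cell/basophil-like (each under 2%). Clusters holding 9.91% of the cells stayed unnamed. The T/NK-cell-like class had 29 cells in TOE_4d_24h and the macrophage-like class 23, the fewest of any class used, and 1 erythroid-like cluster of 2636 cells came mostly (1995 cells) from TO_2d_4h. Libraries shared up to 110 barcodes in a pair. Levels below are CPM, the UMIs of a gene per 1000000 UMIs of the summed cells of a class in 1 library. The near-identical Hspa1a and Hspa1b can exchange reads, so the split between them is uncertain.

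As a ratio of the highest to the lowest class mean, the inducible HSP70 genes and the small heat shock protein differed most between classes. Hspb1 averaged 443 ± 279 CPM (SD, n = 8 libraries) in mesenchymal-like cells and 58.6 ± 48.1 in macrophage-like cells, the next class, and it was higher in the mesenchymal-like cells in 8 of 8 libraries. All other classes had a mean at or below 42.2 CPM of Hspb1, and neutrophil-like cells had the lowest, 6.23 ± 6.87. Hspb1 was thus the 1 member whose highest class stood above all the others by more than the spread between libraries in either class and in every library.

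Hspa1b had its highest mean in mesenchymal-like cells, 1410 ± 272 CPM, followed by 1043 ± 641 in monocyte-like and 902 ± 421 in macrophage-like cells. Those neighbours did not differ beyond their spread. B-cell-like cells had the lowest level, 67.2 ± 72.0, and neutrophil-like cells the next lowest, 124 ± 119. Hspa1a followed a like order, from 1460 ± 994 CPM in monocyte-like cells to 281 ± 234 in neutrophil-like and 151 ± 130 in B-cell-like cells. The neutrophil-like cells were below the erythroid-like cells, the class ranked just above, in 8 of 8 libraries for both genes.

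The remaining members had other orders. Hsp90aa1 was highest in mast-cell/basophil-like cells (2997 ± 1043 CPM) and lowest in mesenchymal-like cells (1008 ± 142). Hspa8, the constitutive HSP70, ranged only from 553 ± 177 in mesenchymal-like to 1073 ± 404 in mast-cell/basophil-like cells. Hspd1 was highest in summed UMIs in erythroid-like (570 ± 210) and progenitor-like cells (542 ± 108), which did not differ beyond their spread, but it was at 308 in erythroid-like cells as a mean over cells and at 318 in cells thinned to 1500 UMIs. Hspe1, its partner, was highest in the same classes, at 808 ± 298 and 919 ± 374. Both were lowest in neutrophil-like cells, Hspd1 at 78.4 ± 32.2 and Hspe1 at 119.5 ± 32.2, and in 8 of 8 libraries those cells were below the class ranked just above. Dnajb1 was highest in mast-cell/basophil-like cells, 341 ± 111, and lowest in B-cell-like cells, 78.1 ± 25.2. Hsph1 ran from 1144 ± 495 in mast-cell/basophil-like to 301 ± 221 in neutrophil-like cells.

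**Figure D1:**
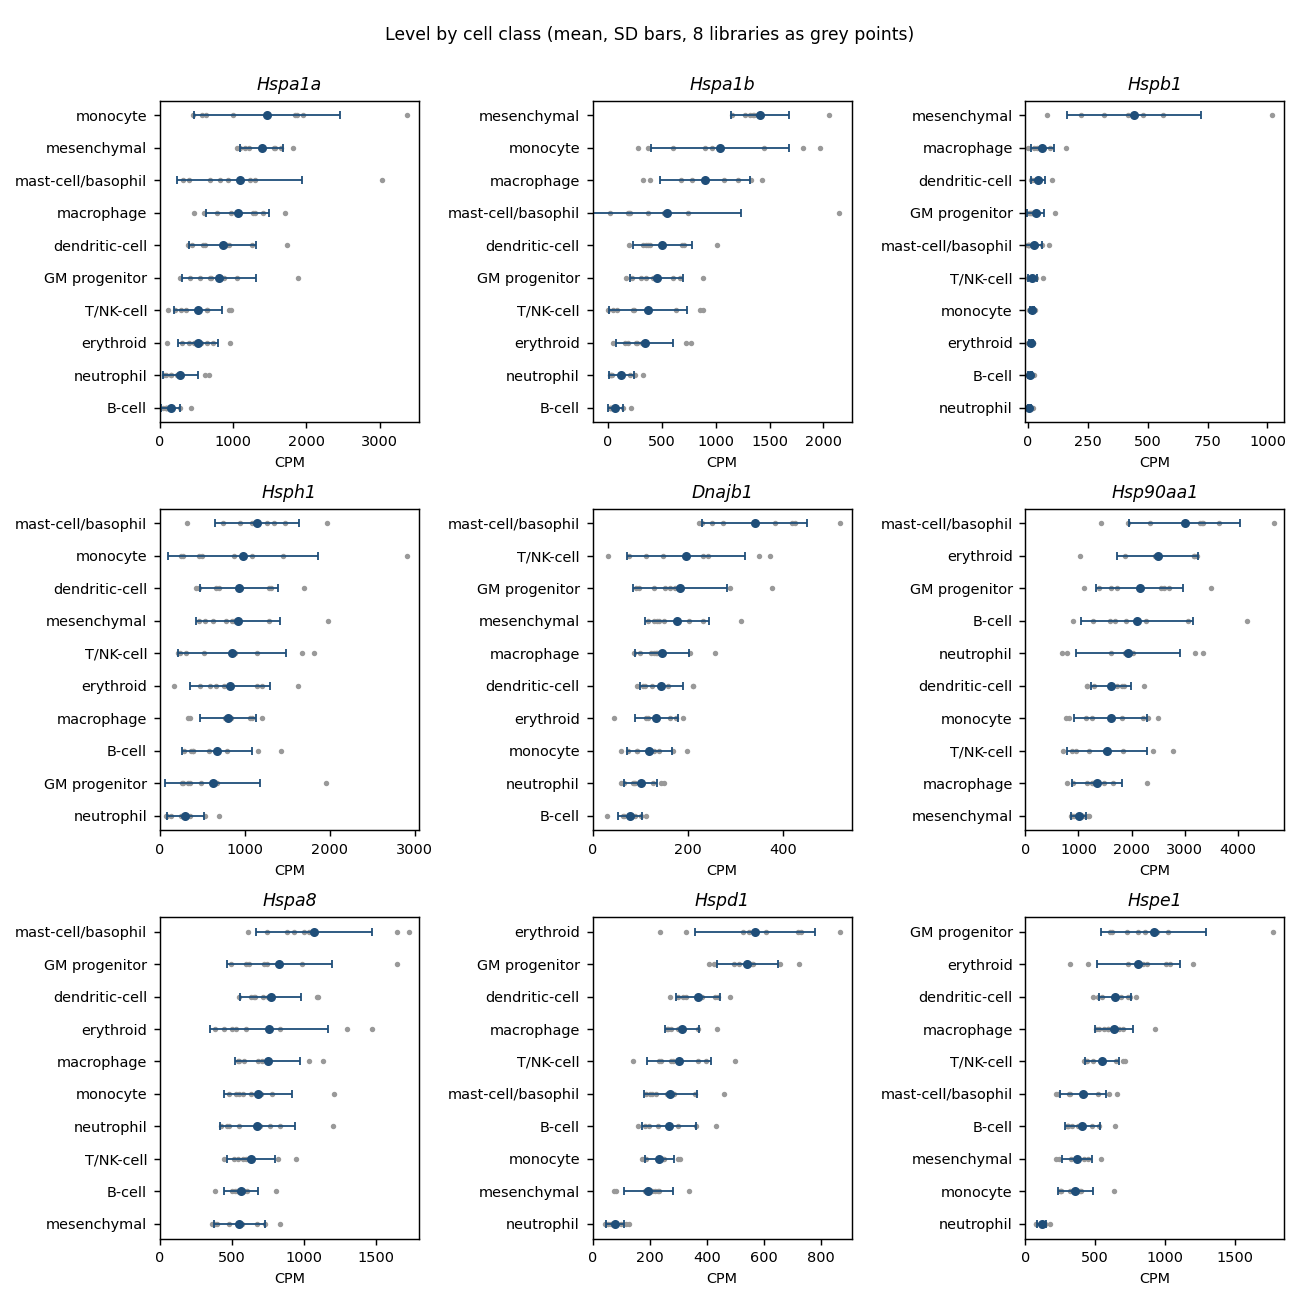
Level of each member in the 10 cell classes, in CPM (linear axis, a separate scale for each gene), with the mean as a blue point, the SD as a bar and the 8 libraries as grey points. Hspb1 stood apart in mesenchymal-like cells (443 CPM), and neutrophil-like and B-cell-like cells held the lowest Hspa1a and Hspa1b.

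The first comparison asked whether the chaperones differed between the hours of collection. In UMIs summed over all cells, the 4 h libraries overlapped the others for every member, and none of the 9 passed edgeR's quasi-likelihood test (Benjamini-Hochberg adjusted over 21873 genes), in which 1.7% of all genes were called. Of the members, 3 had an unadjusted p under 0.05, as had 22.2% of all genes. When TOE_2d_24h or TOE_4d_24h was left out 1 member was called, where 2.81% and 8.07% of all genes were. Hsph1 came closest: it was at 620 CPM in TO_2d_4h, 1164 in TO_4d_4h, 624 in TOE_2d_4h and 1102 in TOE_4d_4h, against 301 in TO_2d_0h, 400 in TO_4d_24h, 362 in TOE_2d_24h and 788 in TOE_4d_24h. In these summed UMIs only TOE_4d_24h among the other hours reached the range of the 4 h libraries. The log2 difference of Hsph1 was 0.89 ± 0.18 (SE, adjusted p = 0.0576). The median difference of the members was 0.26 on the log2 scale, and the median over all genes was -0.02. With the make-up of each library set to the same class shares, Hsph1 was higher by 0.92 and Hspa1b by 0.88 on the log2 scale, and 0 of the 9 members passed an exact two-sided permutation test over the 4 against 4 libraries (p = 0.143 for both, where 0.0286 is the smallest p this design allows).

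The overlap depended on how cells were averaged. As a mean over cells, in which every cell counts alike, Hspa1b was at 200, 517, 217 and 769 CPM in TO_2d_4h, TO_4d_4h, TOE_2d_4h and TOE_4d_4h, and at 78.9, 165, 170 and 127 in TO_2d_0h, TO_4d_24h, TOE_2d_24h and TOE_4d_24h. Hsph1 was at 774, 1385, 770 and 1510 in the 4 h libraries and at 325, 418, 377 and 569 in the others, in the same order. All 4 h libraries then lay above all others for both genes, as they did for 14.2% of the 21873 genes, and the other 7 members still overlapped. These means were given no test.

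**Figure D2:**
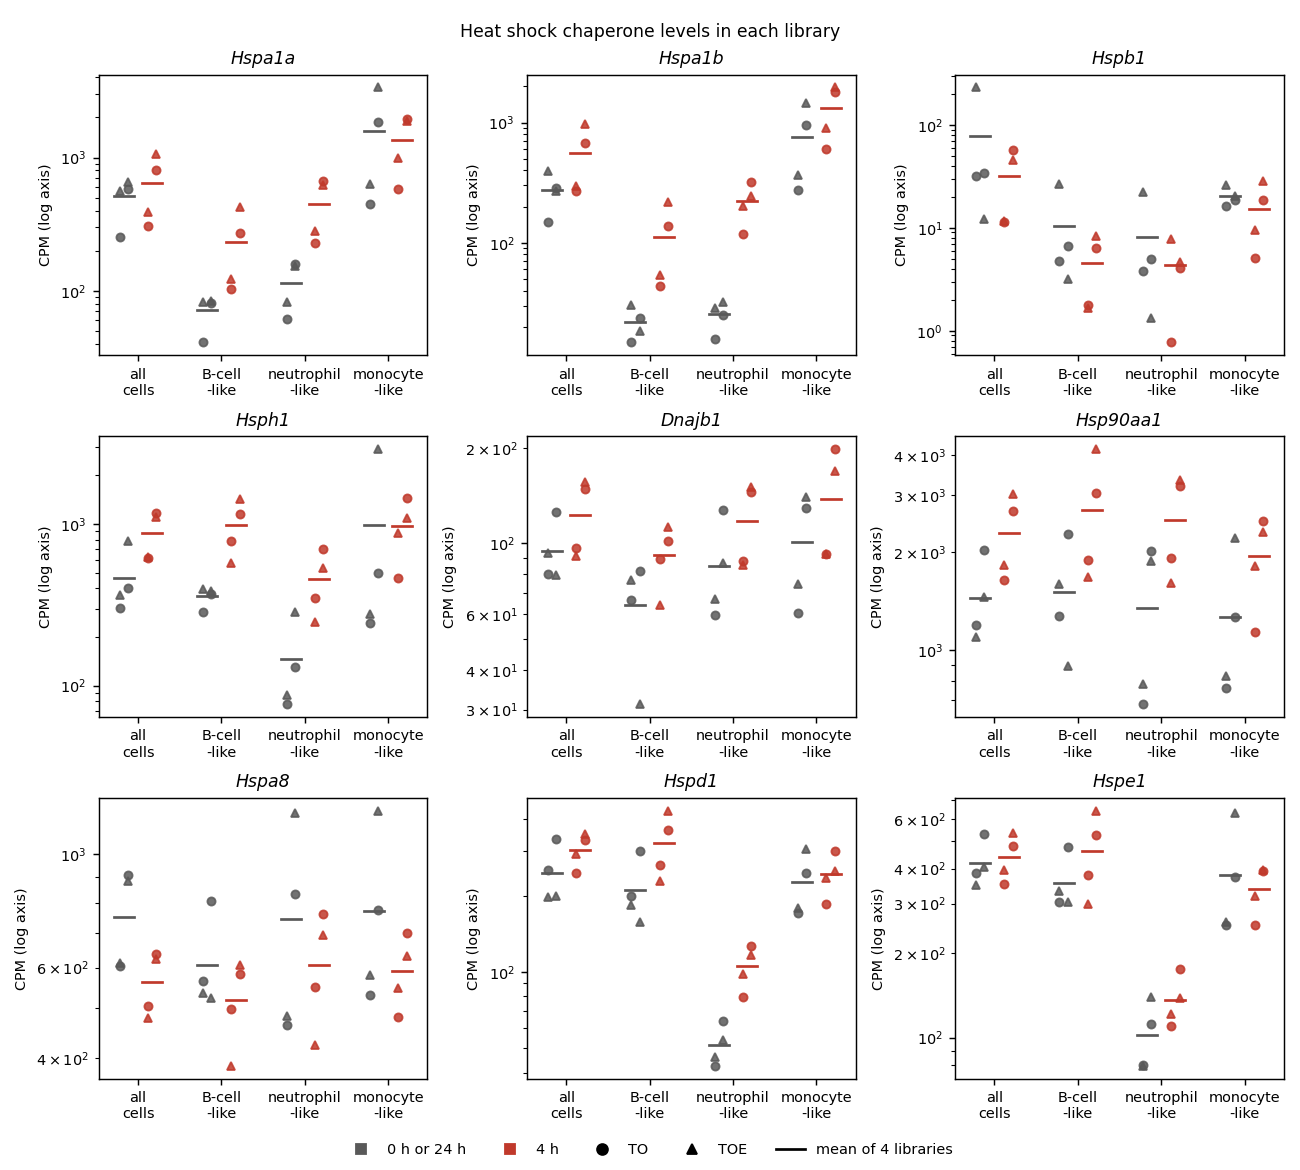
Members' levels in CPM (log axis) in all cells and in the 3 largest classes, with 4 h libraries in red, 0 h and 24 h libraries in grey, TO as circles, TOE as triangles and the mean of 4 libraries as a line. Hspa1a, Hspa1b and Hsph1 separate by hour in B-cell-like cells, and Hspa1a, Hspa1b and Hspd1 in neutrophil-like cells.

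Within B-cell-like cells, 3 of the 9 members were higher at 4 h and 0 lower, where 5.97% of 18338 genes were called higher and 6.89% lower. The 3 were both inducible HSP70 genes and their exchange factor Hsph1. Hspa1b was at 43.4 CPM in TO_2d_4h, 137 in TO_4d_4h, 54.1 in TOE_2d_4h and 217 in TOE_4d_4h, against 14.9, 23.4, 30.1 and 18.5 in TO_2d_0h, TO_4d_24h, TOE_2d_24h and TOE_4d_24h. All 4 h libraries lay above all others, and the day 4 libraries were the highest in both arms. The log2 difference was 1.99 ± 0.41 (adjusted p = 0.0235). Hspa1a stood at 103, 273, 123 and 423 CPM in the 4 h libraries in the same order, and at 41.2, 81.5, 81.7 and 84.5 in the others. It was higher by 1.39 ± 0.27 (adjusted p = 0.0196), again without overlap. Hsph1 stood at 785, 1156, 573 and 1420 CPM at 4 h and at 286, 371, 394 and 386 at the other hours. Its difference of 1.31 ± 0.22 (adjusted p = 0.0147) was also without overlap, a pattern that 13.4% of the tested genes showed in the same direction. The other 6 members did not pass, among them Hsp90aa1 with 0.67 ± 0.33 (adjusted p = 0.209) and Hspa8 with -0.31 ± 0.16.

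The B-cell-like class lay in different clusters at 4 h and at the other hours. Clusters 8, 11, 18 and 32, in which over 80% of the cells were from 4 h libraries, held 53.9 to 84.6% of the class in each 4 h library and 0.947 to 3.97% in each other library. Clusters 0, 4 and 17, with under 20% of their cells from 4 h, held 1.67 to 3.35% and 20.1 to 86.0%, and TOE_4d_24h, the lowest of the latter, had 78.0% of its B-cell-like cells in clusters 6, 7 and 10. A difference between kinds of B-cell-like cell and a change within them cannot be told apart in the class as a whole. In clusters 6, 7 and 10 alone, the 3 with at least 100 cells in every library (a choice made after seeing the data), 1 member was called, Hspa1b, where 5.51% of 14479 genes were called higher and 6.42% lower. There it was at 80.9, 106, 53.5 and 248 CPM at 4 h and 23.0, 39.0, 43.7 and 17.6 at the other hours in the same order as above, still without overlap (1.78 ± 0.45, adjusted p = 0.0378). Hsph1 (0.87 ± 0.26, adjusted p = 0.0634) and Hspa1a (0.85 ± 0.30, adjusted p = 0.0965) were smaller there and did not pass. The shares of clusters 6, 7 and 10 still differed between libraries, so make-up was not held fixed. They held 368, 292 and 136 cells in TO_2d_4h and 199, 3535 and 1130 in TOE_4d_24h.

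The 3 calls in the whole class were also lost when any 1 of TO_2d_0h, TO_2d_4h, TO_4d_4h or TO_4d_24h was left out (0 members called), and 5 members were called without TOE_4d_24h. The genes called moved with them, from 2358 in all 8 libraries to 135, 194, 142 and 194 without those 4 TO libraries and to 4949 without TOE_4d_24h. The log2 differences of the 3 called members ran from 0.85 to 2.43 over 20 alternatives. Among other measures in the same cells, the summed level of 12 mesenchymal markers was 95.1 to 252 CPM at 4 h and 438 to 1224 at the other hours, with 5 of the 12 lower without overlap. That of 9 endothelial markers was 139 to 195 at 4 h and 50.05 to 128 at the other hours, with 2 of the 9 higher without overlap. The sums of mast-cell/basophil markers (5.67 to 13.5 against 21.8 to 66.2) and osteoclast markers (105 to 128 against 139 to 180) were lower at 4 h. The part of these differences in the chaperone levels was not tested.

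In neutrophil-like cells, 5 members were higher at 4 h and 0 lower, against 3.9% of 14333 genes called higher and 4.82% called lower. Hspa1b had the largest difference of any member in any class: 118, 323, 202 and 246 CPM in TO_2d_4h, TO_4d_4h, TOE_2d_4h and TOE_4d_4h, and 15.9, 25.2, 28.5 and 32.3 in TO_2d_0h, TO_4d_24h, TOE_2d_24h and TOE_4d_24h. The lowest 4 h library was above the highest of the others, as it was for 16.7% of the tested genes. The difference was 2.91 ± 0.24 on the log2 scale (adjusted p = 9.8e-04). Hspa1a was at 229, 666, 282 and 617 CPM at 4 h and at 61.5, 158, 83.0 and 153 at the other hours, a difference of 1.75 ± 0.16 (adjusted p = 0.0015). Neither of these calls was lost in any of the 19 alternatives.

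Hspd1, the mitochondrial HSP60, was the third member without overlap in neutrophil-like cells, with 79.9, 126, 98.1 and 117 CPM at 4 h and 42.6, 64.1, 46.2 and 53.9 at the other hours (log2 difference 0.84 ± 0.14, adjusted p = 0.0148). Its lid Hspe1 did not pass (0.25 ± 0.15, adjusted p = 0.309). Hsph1 was at 350, 697, 248 and 532 CPM at 4 h and at 77.0, 130, 88.0 and 287 at the other hours, so that TOE_4d_24h lay above TOE_2d_4h, and it was higher by 1.56 ± 0.27 (adjusted p = 0.0153). Hsp90aa1 was higher by 0.83 ± 0.18 (adjusted p = 0.0327) with overlapping groups, and it lost its call in 10 of 19 alternatives. The count of called members was 2 without TO_4d_4h and 3 without TO_2d_0h or TOE_2d_4h, while the genes called fell from 1250 to 164, 516 and 274.

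The neutrophil-like clusters were unevenly shared among the libraries. Cluster 24 held 1353 of the 3288 neutrophil-like cells of TOE_4d_24h and 48 to 189 cells in each other library, and cluster 25 held 295 of 1486 in TO_2d_0h and 1 to 14 elsewhere. In clusters 12, 13 and 16 alone, the 3 with at least 100 cells in every library (a choice made after seeing the data), 4 members were called higher and 0 lower, where 2.54% of 14096 genes were called higher and 3.57% lower. These were Hspa1b (2.90 ± 0.23, adjusted p = 0.0010), Hspa1a (1.75 ± 0.16, adjusted p = 0.0016), Hspd1 (0.76 ± 0.13, adjusted p = 0.0164) and Hsph1 (1.48 ± 0.29, adjusted p = 0.0257), while Hsp90aa1 did not pass (0.72 ± 0.18, adjusted p = 0.0555). The shares of clusters 12, 13 and 16 still differed between libraries, so make-up was not held fixed. They held 212, 583 and 1402 cells in TO_4d_24h and 386, 1341 and 202 in TOE_4d_24h. In the whole class the summed level of 8 monocyte markers was 9611 to 12253 CPM at 4 h and 6612 to 9178 at the other hours, with 1 of the 8 higher and 1 lower without overlap, and that of 9 T/NK-cell markers was 297 to 466 against 160 to 294. That of 12 mesenchymal markers was lower, 138 to 304 CPM at 4 h against 433 to 1028, as was that of 7 mast-cell/basophil markers, 16.6 to 27.1 against 33.7 to 74.5. Monocyte-like and mesenchymal-like cells both held more Hspa1a and Hspa1b than neutrophil-like cells, and the part of these markers' classes in the result was not tested.

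T/NK-cell-like cells, a class of 1048 cells, had 4 members higher at 4 h and 0 lower, against 5.79% of 9915 genes called higher and 5.77% called lower. Hspa1b was at 229, 852, 631 and 884 CPM in TO_2d_4h, TO_4d_4h, TOE_2d_4h and TOE_4d_4h, and at 44.0, 238, 80.8 and 3.34 in TO_2d_0h, TO_4d_24h, TOE_2d_24h and TOE_4d_24h. The groups overlapped by TO_4d_24h, which was just above TO_2d_4h, and the TOE_4d_24h value came from 29 cells. The difference was 2.52 ± 0.53 (adjusted p = 0.0123). Hsph1 (882, 1814, 1137 and 1677 CPM against 238, 519, 312 and 214) rose by 1.92 ± 0.24 (adjusted p = 0.0010) without overlap, a pattern that 12.3% of the tested genes showed in the same direction. Dnajb1, the J-domain partner of HSP70, was at 244, 372, 349 and 233 CPM at 4 h and at 77.1, 148, 111 and 33.4 at the other hours, without overlap, and was higher by 1.47 ± 0.29 (adjusted p = 0.0099). Neither Hsph1 nor Dnajb1 lost its call in any of 18 alternatives, and Hspa1b lost it only in DESeq2 (adjusted p = 0.0942). Hsp90aa1 was higher by 0.86 ± 0.23 (adjusted p = 0.035), a call lost in 5 of 18 alternatives, each of which left out 1 library.

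Monocyte-like cells carried high levels of the inducible genes at other hours too. Here 3 members were higher at 4 h and 0 lower, against 6.14% of 15299 genes called higher and 5.48% called lower, and the ranges overlapped for every member. Hspa1b was at 605, 1815, 900 and 1969 CPM in TO_2d_4h, TO_4d_4h, TOE_2d_4h and TOE_4d_4h, and at 277, 962, 367 and 1445 in TO_2d_0h, TO_4d_24h, TOE_2d_24h and TOE_4d_24h. Both day 4 libraries of the other hours exceeded both day 2 libraries of 4 h, and within each day the 4 h libraries were the higher. The difference was 0.96 ± 0.13 (adjusted p = 0.0092). Hsp90aa1 was higher by 0.70 ± 0.15 (adjusted p = 0.0274) and Dnajb1 by 0.46 ± 0.12 (adjusted p = 0.0458), a call that 12 of 18 alternatives lost. Hspa1a, at 577, 1952, 995 and 1870 CPM at 4 h and 447, 1846, 628 and 3368 at the other hours, differed by only 0.09 ± 0.20 (adjusted p = 0.801). Of the 617 monocyte-like cells of TOE_4d_24h, 577 lay in cluster 21 and 34 in cluster 20, which held most of the class in TO_2d_0h (795 of 1050), TO_4d_24h (896 of 1156) and TOE_2d_24h (1093 of 1312). With hour as the only term, 0 members were called in these cells, where 13.3% of 14354 genes were. In the full fit, 0 were called without TO_2d_0h or without TO_4d_4h, 1 without TO_2d_4h, TO_4d_24h or TOE_2d_4h, and 5 without TOE_4d_24h. The genes called there were 227 to 3534 with 1 library left out, against 1778 in all 8. With the libraries of 1 arm and day taken as a pair, 1 member, Hspa1b, was called in monocyte-like cells, where 3.75% of 15299 genes were.

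The hour difference itself was compared between the 3 largest classes, in a model on both classes' summed counts. For monocyte-like minus neutrophil-like cells, 3 members were called, where 4.82% of 16031 genes were. The hour difference of Hspa1b was smaller in monocyte-like cells by 1.94 ± 0.22 on the log2 scale (adjusted p = 0.0069), that of Hspa1a smaller by 1.67 ± 0.23 (adjusted p = 0.0085) and that of Hspd1 smaller by 0.69 ± 0.14 (adjusted p = 0.0275). No member was called for neutrophil-like minus B-cell-like (4.89% of genes called), where 1 member and 22.7% of all genes had an unadjusted p under 0.05, or for monocyte-like minus B-cell-like (1.01%), where 2 members and 17.1% of all genes had one; Hspa1a there differed by -1.31 ± 0.37 (adjusted p = 0.119).

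**Figure D3:**
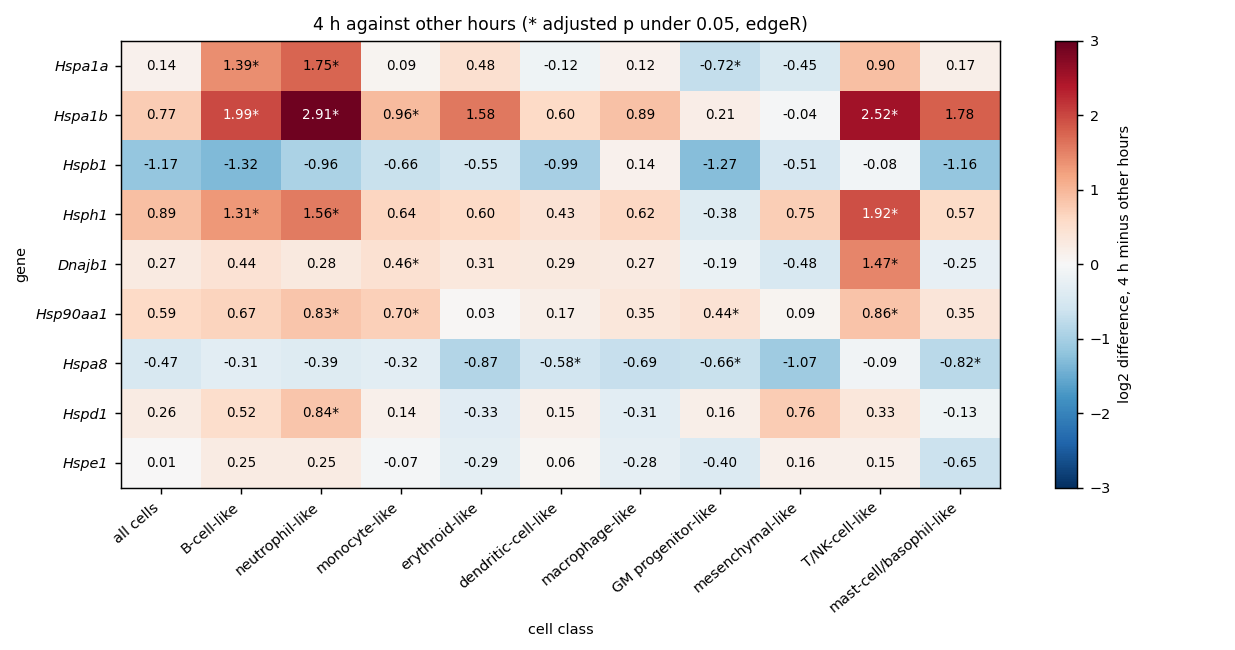
Log2 difference of each member between the 4 h libraries and the other hours in all cells and in the 10 classes, in order of cell number, with red for higher at 4 h, blue for lower and a star for an adjusted p under 0.05 (edgeR). Hspa1b ranges from -0.04 in mesenchymal-like (0.23 when scaled by library totals only) to 2.91 in neutrophil-like cells, while Hspa8 is negative in every column (0.02 in T/NK-cell-like cells when scaled by library totals only).

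In granulocyte-monocyte progenitor-like cells Hspa1a was called lower, while Hspa1b did not pass (0.21 ± 0.10, adjusted p = 0.189). Against 7.34% of 12064 genes called higher and 7.6% called lower, Hsp90aa1 was higher (0.44 ± 0.10, adjusted p = 0.0222) while Hspa1a (-0.72 ± 0.11, adjusted p = 0.0049) and Hspa8 (-0.66 ± 0.16, adjusted p = 0.0285) were lower. Hspa1a was at 275, 684, 543 and 1050 CPM in TO_2d_4h, TO_4d_4h, TOE_2d_4h and TOE_4d_4h and at 408, 879, 692 and 1890 in TO_2d_0h, TO_4d_24h, TOE_2d_24h and TOE_4d_24h. The ranges overlapped widely, and within the same arm and day the 4 h library was the lower in each of the 4 cases. That direction depended on which cells were counted: the difference was 2.5e-05 with clusters drawn at Leiden resolution 2 and 0.078 with the list genes kept in the clustering, and in the same settings Hspa1b was called higher (0.85 in each, adjusted p = 0.0183 and 0.0169). The calls of Hsp90aa1 and Hspa8 were lost in 9 and 11 of 18 alternatives.

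Mesenchymal-like cells, which had the highest Hspa1b, had 0 members called in either direction, where 0.0903% of 13293 genes were called. Hspa1b was at 1389, 2057, 1395 and 1274 CPM at 4 h and 1352, 1320, 1343 and 1154 at the other hours, higher at 4 h within each arm and day. The fitted difference was -0.04 ± 0.22 with TMM factors and 0.23 with library totals only, so that its sign depended on the scaling, and neither passed. Hsph1, Hsp90aa1 and Hspd1 were higher and Hspa8 lower at 4 h without overlap, patterns shown by 14% and 3.7% of the tested genes. The class had from 60 cells (TOE_2d_4h) to 500 cells (TOE_2d_24h) in a library. No member was called in macrophage-like (3.78% of 12589 genes called) or erythroid-like cells (0.178% of 13500), and only Hspa8 in dendritic-cell-like (2.19% of 13350 called lower) and mast-cell/basophil-like cells (2.93% of 8795 called lower). Hspa1b was higher at 4 h by 0.89 ± 0.22 in macrophage-like (adjusted p = 0.0586), 1.58 ± 0.33 in erythroid-like (adjusted p = 0.107) and 1.78 ± 0.52 in mast-cell/basophil-like cells (adjusted p = 0.0792), none of which passed. Without the erythroid-like cluster that came mostly from TO_2d_4h, Hspa1b passed in that class (1.81, adjusted p = 0.0495).

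The members differed in how often their 4 h difference was above or below 0. That of Hspa8 was negative in 10 of 10 classes, from -0.09 in T/NK-cell-like (0.02 with library totals only) to -1.07 in mesenchymal-like cells, and it was called in 3 of them: dendritic-cell-like (-0.58 ± 0.13, adjusted p = 0.0378), progenitor-like and mast-cell/basophil-like cells (-0.82 ± 0.16, adjusted p = 0.0248). In dendritic-cell-like cells Hspa8 was at 547, 653, 631 and 658 CPM at 4 h and at 753, 1092, 715 and 1099 at the other hours, so all 4 h libraries were below all others, as for 8.08% of the tested genes. Each of the 3 calls was lost in some alternatives that left out a library. Hspa1b was positive in 9 of 10 classes (10 with library totals only), Hsph1 in 9 and Hsp90aa1 in 10, with 4, 3 and 4 calls. Hspa1a was positive in 7, called higher in 2 and lower in 1. Hspb1 was negative in 9 classes (8 with library totals only) and called in none. Its differences ran from -1.32 to 0.14, with an SE of 0.84 in B-cell-like cells, where 1 library, TOE_2d_24h, held 26.8 CPM and the others at most 8.24. Hspe1 was called in no class either (-0.65 to 0.25).

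The wider chaperone network, with cold, immediate-early and clock genes beside it, was read from 9 further gene lists. In B-cell-like cells 3 of 31 tested co-chaperones and other heat-inducible chaperones were higher and 1 lower, where 5.97% of all genes were called higher and 6.89% lower. In neutrophil-like cells 4 of 30 were higher and 1 lower, against 3.9% and 4.82% of all genes. Stip1, which bridges HSP70 and HSP90, was higher in 10 of 10 classes and called in 6. It was at 134, 175, 123 and 188 CPM in B-cell-like cells at 4 h and at 78.2, 95.6, 73.1 and 69.3 at the other hours, without overlap (0.88 ± 0.16, adjusted p = 0.018). Chordc1, an HSP90 co-chaperone, was also higher in 10 of 10 classes and called in 3, among them B-cell-like (0.76 ± 0.20) and neutrophil-like cells (0.69 ± 0.14), and Ahsa2, an activator of the HSP90 ATPase, was called in 4. Bag3, a nucleotide exchange factor of HSP70, was called in T/NK-cell-like (1.16 ± 0.21), macrophage-like (0.84 ± 0.19) and mast-cell/basophil-like cells (1.15 ± 0.15). In contrast the polyubiquitin gene Ubb was lower in 10 of 10 classes and called in 6. The constitutive Hsp90ab1 was called in no class, with differences between -0.51 and 0.03.

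For the chaperonin CCT and the chaperones of other compartments, the shares of all genes called in the 3 largest classes are those given above: 5.97% higher and 6.89% lower in B-cell-like, 3.9% and 4.82% in neutrophil-like, and 6.14% and 5.48% in monocyte-like cells. None of the 8 subunits of the cytosolic chaperonin CCT was called in B-cell-like, neutrophil-like or monocyte-like cells (medians of -0.26, 0.17 and 0.02 on the log2 scale). Of 15 chaperones of the endoplasmic reticulum, 0 were called in those 3 classes, and Hspa5, the major HSP70 of that compartment, was called only in progenitor-like cells (0.68 ± 0.18), where Hyou1, Pdia3 and Calr were called higher as well, 4 of the 15, where 7.34% of all genes were called higher. Among 11 mitochondrial chaperones and proteases 0 were higher in B-cell-like cells and 1 was lower, Grpel1, the exchange factor of mitochondrial HSP70. In neutrophil-like cells 1 of the 11 was lower, again Grpel1, and in monocyte-like cells 2, Grpel1 and Trap1, an HSP90 of the mitochondrion (-0.54 ± 0.10), with 0 higher in both. Grpel1 was lower in 10 of 10 classes and called in 7 (-0.97 ± 0.21 in B-cell-like cells, adjusted p = 0.0276). The mitochondrial HSP70 gene Hspa9 was called in no class (-0.54 to 0.22). Hsf1 was positive in 9 of 10 classes (10 with library totals only) and called in monocyte-like (0.54 ± 0.11) and progenitor-like cells (0.74 ± 0.17).

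Cirbp, an RNA-binding protein induced by mild cold and reduced by warmth, was lower at 4 h in 10 of 10 classes and called in 7. Rbm3, the other cold-inducible gene listed, was called in no class, with -0.44 ± 0.18 in B-cell-like (adjusted p = 0.132), -0.58 ± 0.17 in T/NK-cell-like (adjusted p = 0.0508) and -0.06 ± 0.24 in neutrophil-like cells. In neutrophil-like cells Cirbp was at 21.8, 23.4, 16.0 and 16.5 CPM in TO_2d_4h, TO_4d_4h, TOE_2d_4h and TOE_4d_4h, and at 47.5, 42.5, 44.8 and 23.6 in TO_2d_0h, TO_4d_24h, TOE_2d_24h and TOE_4d_24h. The groups did not overlap, although TOE_4d_24h was close to the 4 h libraries. The difference was -1.19 ± 0.20 there and -1.14 ± 0.29 in B-cell-like cells (adjusted p = 0.0389). Immediate-early genes, which rise within minutes of handling or stress, were called in both directions. In B-cell-like cells 0 of 20 were called, against 5.97% of all genes called higher and 6.89% lower. In neutrophil-like cells 1 was higher (Myc) and 1 lower (Jund), against 3.9% and 4.82%. The counts were 3 of 19 higher and 0 lower in T/NK-cell-like cells (5.79% of all genes called higher) and 3 of 20 higher and 0 lower in monocyte-like cells (6.14%). In progenitor-like cells 5 of 20 were higher and 2 lower (7.34% of all genes called higher and 7.6% lower). Fosl1 was among those higher in each of the last 3 classes. Their summed level in B-cell-like cells was 2953 to 5186 CPM at 4 h and 2495 to 8245 at the other hours. Among clock genes, 0 were called in B-cell-like or neutrophil-like cells, and Per1 was called in no class (-1.003 to 0.40). Per2 was lower in 10 of 10 classes (9 with library totals only) and called in T/NK-cell-like cells (-1.19 ± 0.31), Per3 was lower in 8 of 9 and called in T/NK-cell-like (-1.35 ± 0.31) and progenitor-like cells (-1.54 ± 0.40), and Dbp was called higher in monocyte-like cells (0.57 ± 0.11). The median share of mitochondrial transcripts per cell was 2.08 to 2.85% in the 4 h libraries and 2.68 to 4.24% in the others. The part of RNA quality, time of day or handling in the chaperone levels was not tested.

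Across the 80 profiles of 8 libraries in 10 classes, each gene centred within its class, the members moved together to unequal degrees. As a description, and with profiles of 1 library sharing that library, Hspa1a had a Pearson r of 0.88 with the mean of the other members, Hsp90aa1 0.85, Hspe1 and Dnajb1 0.80, Hsph1 0.78, Hspa1b and Hspd1 0.75, Hspa8 0.45 and Hspb1 0.17. The closest pair was Hsph1 with Hsp90aa1 (0.84). Of 3290 other genes expressed in every class, the 10 most like the mean of the members were Dnaja1 (0.81), St13 (0.79), Chordc1 (0.74), Uspl1 (0.72), Ubqln1 (0.69), Cacybp (0.67), Stip1 (0.67), Swt1 (0.63), Ahsa1 (0.61) and Get3 (0.60). Of these, Dnaja1, St13, Chordc1, Stip1 and Ahsa1 encode co-chaperones of HSP70 or HSP90.

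The second comparison asked whether shock waves to the osteotomy changed the chaperones. At day 2 the library outside 4 h was TO_2d_0h in TO and TOE_2d_24h in TOE. In the fits over all 8 libraries, shock waves and that difference in hour cannot be fully told apart. No member passed the edgeR test between TOE and TO in all cells or in any of the 10 classes, though some did in other fits of the smaller classes, as given below. In all cells 0% of 21873 genes passed the edgeR test, and the share was 0% in every class; 565 genes (2.58%) had an unadjusted p under 0.05 in all cells, 0 of them members. TOE and TO libraries overlapped for all 9 members. Hspa1a was at 252, 306, 810 and 585 CPM in TO_2d_0h, TO_2d_4h, TO_4d_4h and TO_4d_24h, and at 391, 565, 1063 and 651 in TOE_2d_4h, TOE_2d_24h, TOE_4d_4h and TOE_4d_24h. The day 4 library at 4 h was the highest in both arms. The log2 difference of TOE minus TO was 0.53 ± 0.24 (adjusted p = 0.977), and the TOE library was 1.28, 1.31 and 1.11 times the TO library at 2d 4h, 4d 4h and 4d 24h. In a fit on the 3 matched pairs alone, Hspa1a differed by 0.25 ± 0.23. Hspb1 went from 0.85 ± 1.08 over all 8 libraries to -0.64 ± 0.32 in that fit. Hspa1b differed by 0.58 ± 0.35 over all 8 libraries, but by 0.14 ± 0.25 in a fit on the 3 matched pairs alone, where its ratios of TOE to TO were 1.10, 1.43 and 0.95. Hsp90aa1 differed by -0.10 ± 0.18, and Hsph1 was nearly equal at 2d 4h and 4d 4h (ratios of 1.01 and 0.947) and 1.97 times as high in TOE at 4d 24h.

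The matched pairs went in different directions in different classes, and with the filter on low counts and all 8 libraries none of the following passed the edgeR test. In progenitor-like cells 8 of the 9 members were higher in TOE in all 3 pairs, as were 14.2% of all genes, with Hspa1a at 1.98, 1.53 and 2.15 times TO (log2 difference 0.84 ± 0.11, adjusted p = 0.386) and Dnajb1 at 1.57, 1.67 and 2.32 times (0.76 ± 0.14, adjusted p = 0.915). Hspa1b differed by 0.65 ± 0.10 there (adjusted p = 0.442). In that class 5 members had an unadjusted p under 0.05, against 4.83% of all genes. With DESeq2 the genes called between the arms in progenitor-like cells were 3 of 22348, all of them members: Hspa1a (adjusted p = 1.1e-06), Hspa1b (adjusted p = 0.000632) and Dnajb1 (adjusted p = 0.0282). Without the filter on low counts edgeR called 14 of 22348 genes there, the same 3 members among them (adjusted p = 0.00225, 0.033 and 0.0301).

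In mesenchymal-like cells 4 members were lower in TOE in all 3 pairs, Hspa1a, Hspb1, Dnajb1 and Hsp90aa1, as were 7.16% of all genes, and 0 higher. Dnajb1 was at 203, 151, 232 and 312 CPM in TO_2d_0h, TO_2d_4h, TO_4d_4h and TO_4d_24h, and at 129, 140, 135 and 117 in TOE_2d_4h, TOE_2d_24h, TOE_4d_4h and TOE_4d_24h. It was the 1 member in any class whose arms did not overlap, and 0.474% of the genes tested in mesenchymal-like cells were lower in TOE without overlap. The log2 difference of Dnajb1 was -0.82 ± 0.27 (adjusted p = 1.00). B-cell-like cells had 1 member higher in all 3 pairs (Hspa1a), against 19.3% of all genes, and 0 lower, and neutrophil-like cells 0 in either direction. The members higher in all 3 pairs were 4 in dendritic-cell-like cells (15.5% of all genes), and 3 each in erythroid-like (17.5%), macrophage-like (13%) and monocyte-like cells (23.1%), with 0 lower in each. In T/NK-cell-like cells 2 were lower (11.1%) and 0 higher, in mast-cell/basophil-like cells 2 were higher (14.9%) and 1 lower (11.4%), and in all cells together 1 was higher (11.2%) and 1 lower (12.7%). In monocyte-like cells 2 members and 10.4% of all genes had an unadjusted p under 0.05, the members being Hspa1a (0.47 ± 0.20, adjusted p = 0.47) and Hspa1b (0.35 ± 0.13, adjusted p = 0.443). In dendritic-cell-like cells 3 members had one against 3.83% of all genes. Without TOE_4d_24h Hspb1 was called there (1.75, edgeR adjusted p = 0.0208), the 1 gene called of 13181. In mast-cell/basophil-like cells 2 members had one against 4.26%. Without the filter on low counts 69 of 19408 genes were called there, among them Hspa1a (0.79) and Hspa1b (1.77) as higher and Hspb1 (-1.74) as lower in TOE. Without TOE_2d_24h the 1 gene called of 8717 in that class was Hspb1, lower in TOE (edgeR adjusted p = 0.00744). Its counts there were low, with 2, 0, 51 and 117 UMIs in TO_2d_0h, TO_2d_4h, TO_4d_4h and TO_4d_24h, and 0, 27, 1 and 2 in TOE_2d_4h, TOE_2d_24h, TOE_4d_4h and TOE_4d_24h.

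**Figure D4:**
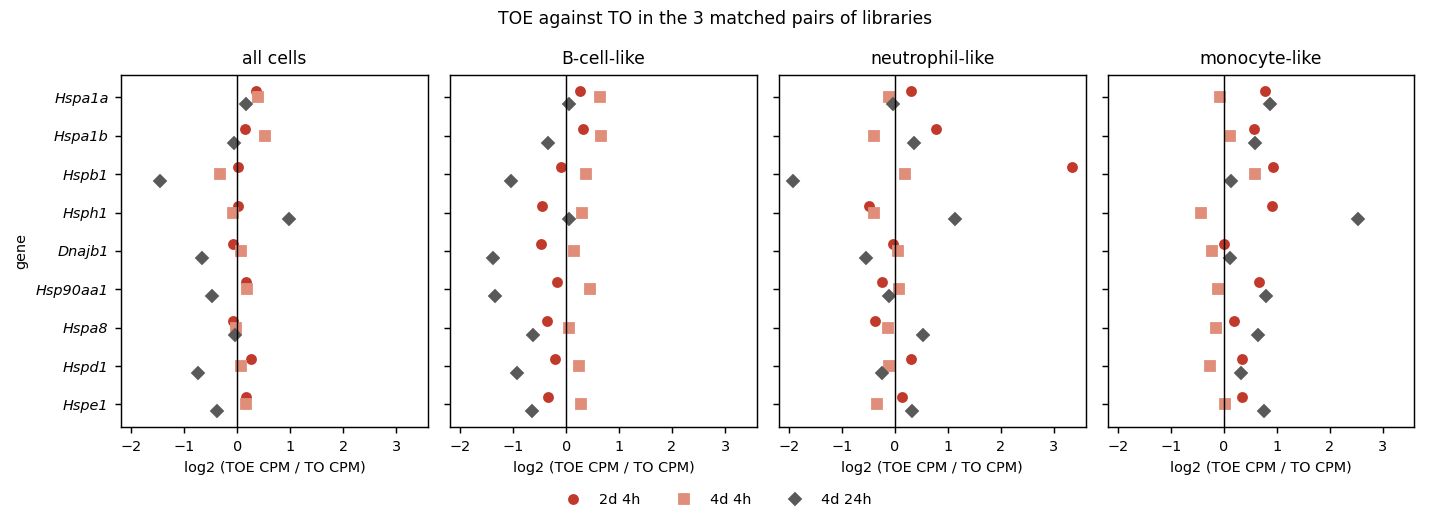
Log2 ratio of TOE to TO for each member in the 3 pairs of libraries matched for day and hour, in all cells and in the 3 largest classes; the vertical line marks equal levels. The pairs fall on both sides of the line for most members, and Hspa1a in all cells lies to the right in all 3 (ratios of 1.28, 1.31 and 1.11).

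A change of the hour difference with shock waves was tested as an interaction. At day 2 the library outside 4 h was TO_2d_0h in TO and TOE_2d_24h in TOE. The interaction therefore also holds the difference between 0 h and 24 h, and the parts cannot be fully told apart. No member was called in all cells, where 0% of genes were, and 839 genes (3.84%) including 1 member had an unadjusted p under 0.05. That member, Hspd1, had an interaction of 0.77 ± 0.29 on the log2 scale (adjusted p = 0.983). The estimates for the inducible HSP70 genes were -0.28 ± 0.51 for Hspa1a and -0.40 ± 0.76 for Hspa1b. In erythroid-like cells 5 members had an unadjusted p under 0.05, against 7.32% of all genes, with a median interaction of 1.13 over the members and 0 called. They were Hspa1a (1.70 ± 0.52), Hspa1b (1.40 ± 0.40), Dnajb1 (1.29 ± 0.29), Hspe1 (1.27 ± 0.48) and Hsp90aa1 (1.00 ± 0.35), each with an adjusted p of 0.677. The erythroid-like class differed in make-up between libraries: TOE_4d_24h had 0 cells in cluster 19 and 78 of its 81 in cluster 28, TOE_2d_24h had 353 of 398 in cluster 19, and TO_2d_4h had 1995 of 2680 in cluster 31. The part of that make-up in the interaction was not tested. In dendritic-cell-like cells 2 members had one, against 5.54% of all genes, both with positive estimates. Negative estimates with an unadjusted p under 0.05 were those of Hsph1 in neutrophil-like cells (-1.17 ± 0.35, against 4.74% of all genes in either direction), Hsph1 in mesenchymal-like cells (-1.17 ± 0.47, against 3.33%) and Hspb1 in progenitor-like cells (-2.39 ± 0.35, against 8.34%), each the 1 member of its class, with edgeR adjusted p of 0.897, 0.999 and 0.296. The other 5 classes had 0 such members. With 1 library per condition, these p-values measure the spread left between the 8 libraries after the fitted terms. That spread is not one between replicates of a condition.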

How the data were processed

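Single cells of the osteotomy site were captured with 10x Genomics 3′ chemistry, and the authors deposited 1 filtered count matrix per library, UMI counts per gene and cell made with Cell Ranger 9.0.0 according to the submitters' processing notes, which also name Seurat, R 4.0.3 and the builds mRatBN7.2 and GRCh38 without their roles. In these files counts below 500 UMIs per barcode do not occur. The series text names 9 rats for 9 samples without saying which rat gave which library, and the spread between libraries includes that between their conditions. Pseudogenes of Hsp90aa1 and Hspa8 held at most 1.99% and 1.70% of the UMIs of the gene and its pseudogenes together.

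Barcodes under 200 genes or over 20% mitochondrial UMIs were dropped, which left 114232 of 116711. Scrublet in scanpy 1.11.5 (expected rate 8%, score above 0.25) removed 2.27 to 4.24% of each library; its automatic threshold marked 0 to 395. Cells were scaled to 10000 UMIs, and 2000 variable genes without 17 list genes (5 of them members) gave 30 components, 15 neighbours and 33 Leiden clusters at resolution 1. Clusters were named from marker lists with at least 3 raised markers; 5 stayed unnamed.

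UMIs were summed per class and library and tested with edgeR 4.0.16 (quasi-likelihood, TMM, filterByExpr; terms hour, arm and day, 4 residual degrees of freedom; Benjamini-Hochberg adjusted p under 0.05). A model over both classes' sums, with the class by hour term, compared hour differences between classes. The SE of each edgeR difference was its absolute log2 value over the square root of the test's F statistic, not a separately fitted error. Levels with class shares held fixed used each class's share of all UMIs. Alternatives were DESeq2 1.42.0, library totals, RLE factors, no filter, the factor alone, matched libraries as a block, each library left out, other cell filters, Leiden resolutions 0.5 and 2, list genes kept and, for B-cell-like and neutrophil-like cells, other sets of clusters; cells were thinned to 1500 UMIs to check levels. The hour term of the main edgeR fit was tested on simulated data. There a small set of genes above the median level was changed, and arm and day had no effect. Genes changed by 1 on the log2 scale were called in 19% of cases in all cells, 56% in B-cell-like and 9% in mesenchymal-like cells. Genes changed by 2 were called in 84%, 100% and 87%. In those simulated data a change of 1 was thus often missed in all cells and in mesenchymal-like cells. The rate in the real data can differ, and the arm, interaction and between-class terms and DESeq2 were not simulated. Named genes were the members, a fixed set of 11 chaperone, cold, immediate-early and clock genes, up to 4 per list with the smallest adjusted p, and the 10 of highest likeness; Ubb and Grpel1 came from the third part. The members and lists were chosen with earlier results of these data known. Intervals and sampling of UMIs cover counting error only.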

Additional observations from a re-analysis of the deposited data

Results flagged for a closer look

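Among the 4 libraries of an hour group, 1 library stood far from the other 3 (Dixon's test at the 95% level, in 90 groups of 4 of which chance alone would mark about 1 in 20) for the following members. In all cells, Hspb1 was at 232 CPM in TOE_2d_24h against 12.3 to 33.8 in the other libraries of 0 h and 24 h, and in B-cell-like cells it was at 26.8 in the same library against 3.20 to 6.62. TOE_2d_24h also had the most mesenchymal-like cells, 500 (3.54% of its cells, against 0.370 to 1.45% elsewhere), the class with the highest Hspb1; the part of that share in the result was not tested.

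In B-cell-like cells, Hspa1a was lowest in TO_2d_0h, 41.2 CPM against 81.5 to 84.5 in the 24 h libraries, while TO_4d_24h had the highest Hspa8, 809 against 523 to 564, and the highest Hspe1, 478 against 305 to 334. In monocyte-like cells Hsph1 was at 2907 CPM in TOE_4d_24h against 246 to 498 in the others of 0 h and 24 h. In TOE_4d_24h 577 of the 617 cells of that class lay in cluster 21, while cluster 20 held most of the class in the others. Hsph1 in TOE_4d_24h was 5.84 times TO_4d_24h there, 5.90 in progenitor-like, 3.72 in dendritic-cell-like, 2.74 in erythroid-like and 2.20 in neutrophil-like cells. The ratio was 1.57 in macrophage-like, 1.47 in mesenchymal-like, 1.35 in mast-cell/basophil-like, 1.04 in B-cell-like and 0.412 in T/NK-cell-like cells. In mesenchymal-like cells TOE_4d_24h had the lowest Hspa1a of its hours, 1091 against 1564 to 1648, and the lowest Hspa1b, 1154 against 1320 to 1352. At 4 h, TO_4d_4h had the highest Hspa1b in that class, 2057 against 1274 to 1395, and the highest Hspd1, 338 against 217 to 232.

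The hour difference differed between monocyte-like and neutrophil-like cells by the test of the difference itself for Hspa1b (-1.94 on the log2 scale), Hspa1a (-1.67) and Hspd1 (-0.69), as given above.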

How the results depend on the processing

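For 4 h against other hours in all cells (0 members called), 1 was called with DESeq2 (10.0% of all genes called) and with library totals only. With 1 library left out 0 to 1 were called, where 3 to 1758 genes were, against 371 in all 8 libraries. In B-cell-like cells (3 called) leaving out 1 library gave 0 to 5, in neutrophil-like cells (5 called) 2 to 6 and in monocyte-like cells (3 called) 0 to 5. Hour as the only term gave 3 in neutrophil-like cells (10.0% of all genes called) and 0 in monocyte-like cells (13.3%). In mesenchymal-like cells (0 called) DESeq2 and hour as the only term each gave 1, where 5.65% and 5.16% of all genes were called. Leaving out a library gave 0 members throughout, with 0 to 6 genes called. The libraries whose absence moved these counts stand in the report, and a fit without 1 library has 3 residual degrees of freedom and also calls fewer genes in most cases (135 to 4949 of all genes in B-cell-like cells against 2358). For TOE against TO, 0 members were called in all cells and these 4 classes under every alternative run, and for the interaction in all cells as well, whereas in progenitor-like, mast-cell/basophil-like and dendritic-cell-like cells the fits named in the report called 1 to 3. Hspa1a in progenitor-like cells (-0.72) turned to 2.5e-05 at Leiden resolution 2 and to 0.078 with list genes kept, and Hspa1a in dendritic-cell-like cells (-0.12, not called) became 0.58 at resolution 2. Hspd1 in erythroid-like cells (570 CPM) was 308 as a mean over cells and 318 in thinned cells. The cause of these changes was not tested. Of 3786 single-gene values under alternatives, 3634 kept direction and side of the threshold or stayed uncalled, 92 lost a call, 57 gained one and 3, the Hspa1a values above, reversed. Adding clusters with plasma-cell markers, keeping only clusters with at least 100 cells in every library leaving out the erythroid-like cluster mostly of TO_2d_4h and the block below were chosen after seeing the data; the first left 3 members called in B-cell-like cells, the second 1 there and 4 in neutrophil-like cells, and the third brought Hspa1b past the threshold in erythroid-like cells (1.81, edgeR adjusted p = 0.0495). With 1 library left out of the 4 against 4 permutation test the smallest p is 0.0571, so that no call was possible. The labels give no replicate numbers that pair libraries, so matched conditions were taken as a block: for the hour 4 pairs of the same arm and day (3 residual degrees of freedom), and for the arm 3 pairs of the same day and hour (2, without TO_2d_0h and TOE_2d_24h). With the block 0 members were called at 4 h in all cells (0.0869% of all genes called), 3 in B-cell-like (6.03%) and 4 in neutrophil-like cells (4.43%). In monocyte-like cells 1 was called (3.75%) and in mesenchymal-like cells 0 (0.0376%). Between the arms 0 members were called in all cells and every class, where at most 1 gene was called in any of them. Calls lost were those of Hsp90aa1 in neutrophil-like and monocyte-like, Dnajb1 in monocyte-like, and Hspa8 in dendritic-cell-like and progenitor-like cells; Hspa1a in T/NK-cell-like cells gained one (1.12, edgeR adjusted p = 0.0266).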
